A study of Mus musculus with 57 samples.

Results

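Th2 cells, the helper T cells of allergic and anti-worm responses, import amino acids through a small set of membrane carriers, and 7 genes of amino acid supply are described here across 56 single mouse Th2 cells. They are 6 transporter genes, Slc7a5, Slc3a2, Slc1a5, Slc7a1, Slc38a2 and Slc1a4, and Bcat1, an enzyme of branched-chain amino acid metabolism. The 7 genes were taken by name from a table of 10565 genes, which writes them in lower case (slc7a5, slc3a2, slc1a5, slc7a1, slc38a2, slc1a4 and bcat1), and all of them were present in it. The cells were CD4+ T cells from spleens of wild-type C57BL/6 mice aged 8 weeks. They were cultured for 5 days with IL-4 and an antibody that blocks IFNγ, received IL-2 on day 2, and were stimulated again through CD3 and CD28, per the labels. Each cell was captured and amplified on a Fluidigm C1 microfluidic device, and all cells shared this genotype and treatment. A library of 10000 pooled cells was left aside and was not analysed here.

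Slc7a5 and Slc3a2 encode the light and the heavy chain of CD98, a surface heterodimer. The light chain carries large neutral amino acids such as leucine across the membrane in exchange for glutamine, and the heavy chain brings it to the surface. Slc1a5 and Slc38a2 import glutamine and other small neutral amino acids, Slc1a4 carries alanine, serine and cysteine, and Slc7a1 carries arginine and lysine. Bcat1, the cytosolic branched-chain aminotransferase, moves the amino group of leucine, isoleucine and valine to 2-oxoglutarate. In T cells activated through their receptor, Slc7a5 is known to be induced, its loss is known to impair growth and mTORC1 activity, and Myc is known to drive several of these genes.

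Values are in TPM, a unit of transcript abundance that accounts for transcript length and sums to a fixed total in each cell, so levels can be set side by side between genes. The deposited TPM values were whole numbers, and detection means a value of at least 1 TPM. TPM keeps no sequencing depth, so a value of 0 is given as listed at 0 and not as absence. The 56 cells carry set labels T1 to T5, with 8 cells in T1 and 12 in each other set, and the labels do not say what a set is. Which animal or culture a cell came from is not in the labels, so all of them count as 1 sample, and no test between cells was made. The median cell had 4743.5 detected genes, from 2679 to 8396. Cell T3_2 stood apart by its median Spearman rank correlation with the other cells over all genes, 0.268 against 0.436 in the next lowest cell, and T3_5 by the highest number of detected genes. T4_3, with 2679, and T3_3, with 2906, had the fewest. Values without each of these 4 cells are given in the closing section. T cell identity genes were present: 6 of the 14 analysed were detected in every cell.

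Promoter sequences of the genes that the results turn on are shown first, to give the DNA just upstream of each start. The RefSeq promoter table (GRCm38.p6) held 7 entries for 5 of the 7 genes, namely Slc3a2, Slc38a2, Slc7a1, Slc1a4 and Bcat1. Each window of 300 bases ran from 250 bases before the annotated start to 50 bases after it. It was searched on both strands for 3 motifs, the E-box CACGTG, the core of the ATF4 and C/EBP composite element TGATGNAA, and the GC box GGGCGG. None of the 3 is contained in another. Of the 32851 windows in the table, 7.15% held the E-box, 3.97% the ATF4 element and 35.7% the GC box. The E-box letters were in none of the 7 windows. The ATF4 element was in the Slc1a4 window only, where it begins at position -4 from the start. GC boxes were in the windows of Slc1a4 (3), Slc3a2 (2), Slc38a2 (1) and 1 of the 2 Slc7a1 starts, and in neither Bcat1 window. The 250 bases upstream of Slc3a2 and of the 2 Bcat1 starts, and 30 bases around the Slc1a4 match, are given below in the 5′ to 3′ direction of the gene. All 4 lie on the minus strand, and capitals mark a motif match.
Slc3a2, chr19:8713898-8714147, GC box in capitals: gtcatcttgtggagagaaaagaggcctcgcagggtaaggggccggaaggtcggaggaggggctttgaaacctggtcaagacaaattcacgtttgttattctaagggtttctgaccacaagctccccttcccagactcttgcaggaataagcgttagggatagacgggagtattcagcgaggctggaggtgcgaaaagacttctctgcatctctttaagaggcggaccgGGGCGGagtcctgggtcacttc
Bcat1, chr6:145048813-145049062, no match: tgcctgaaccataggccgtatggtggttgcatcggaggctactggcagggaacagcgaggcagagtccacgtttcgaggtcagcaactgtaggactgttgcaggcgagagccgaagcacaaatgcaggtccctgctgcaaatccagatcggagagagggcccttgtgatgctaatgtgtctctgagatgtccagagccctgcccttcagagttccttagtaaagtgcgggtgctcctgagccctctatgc
Bcat1, chr6:145076158-145076407, no match: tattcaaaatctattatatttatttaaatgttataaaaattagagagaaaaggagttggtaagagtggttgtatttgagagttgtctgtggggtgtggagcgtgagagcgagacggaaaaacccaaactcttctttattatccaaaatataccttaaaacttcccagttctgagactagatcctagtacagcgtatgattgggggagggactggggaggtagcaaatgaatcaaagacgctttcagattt
Slc1a4, chr11:20332699-20332728, ATF4 element in capitals on the reverse strand: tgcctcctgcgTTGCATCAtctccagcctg
The Slc3a2 window had a GC content of 56%, and the Bcat1 windows 58.7% and 41%, against a median of 52.7% over all windows. A match is a description of letters and says nothing about which factor was bound in these cells.

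The heavy chain Slc3a2 and the glutamine carriers Slc38a2 and Slc1a5 were the most abundant of the 7 genes, while Slc1a4 was listed at 0 in most cells. Slc3a2 ranged from 2 TPM in T4_3 through a median of 160 to 2821 in T4_7, with a mean of 242 ± 395 TPM (SD, n = 56 cells). Slc38a2 ranged from 0 through a median of 155.5 to 1453 TPM, again in T4_7, with a mean of 213 ± 260 TPM (SD, n = 56 cells). Slc1a5 ranged from 1 through a median of 75 to 1013 TPM in T1_7, with a mean of 169 ± 195 TPM (SD, n = 56 cells). Each of these 3 SDs was larger than its mean, so the 3 genes overlapped across nearly their whole range. Bcat1 ranged from 0 through a median of 22.5 to 254 TPM in T3_4, with a mean of 62.6 ± 78.4 TPM (SD, n = 56 cells). Its highest level was not that of a lone cell, since the next cells, T1_4, T2_1 and T2_8, held 249, 248 and 247 TPM.

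The light chain Slc7a5 and the arginine and lysine carrier Slc7a1 were lower. Slc7a5 ranged from 0 through a median of 16 to 255 TPM in T2_7, with a mean of 35 ± 51.7 TPM (SD, n = 56 cells). Slc7a1 ranged from 0 through a median of 12.5 to 261 TPM in T5_1, with a mean of 27.8 ± 42.9 TPM (SD, n = 56 cells). Slc7a1 was at 100 TPM or more in 3 cells, against 6 cells for Slc7a5, 13 for Bcat1, 26 for Slc1a5, 32 for Slc38a2 and 36 for Slc3a2. Slc1a4 was listed at 0 in 47 cells. In the other 9 cells it stood at 297 TPM in T5_3, 151 in T2_12, 74 in T1_4, 48 in T2_7, 43 in T4_6, 23 in T1_6, 8 in T4_4 and 1 in both T2_10 and T3_5. A single cell, T5_3, thus held 46% of all Slc1a4 TPM, and without it the mean of 11.5 TPM became 6.35 TPM.

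**Figure D1:**
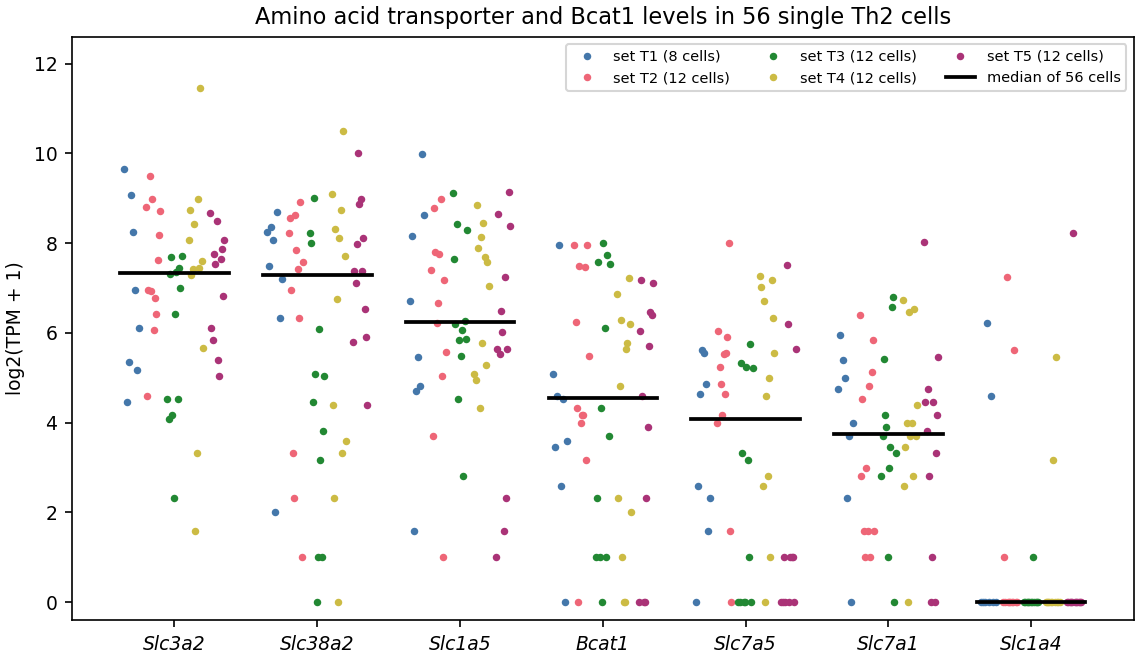
Level of each of the 7 genes in every cell as log2(TPM + 1) on the vertical axis, with points coloured by set of cells and a black bar at the median of the 56 cells. The medians run from 160 TPM for Slc3a2 down to 0 for Slc1a4.

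Slc3a2 and Slc1a5 were detected in all 56 cells (100%, Clopper-Pearson 95% interval 93.6% to 100%, which covers counting error only). Of all 10565 genes, 3.77% were detected in every cell. Slc38a2 was detected in 54 cells (96.4%), Slc7a1 in 51 (91.1%), Bcat1 in 48 (85.7%, interval 73.8% to 93.6%), Slc7a5 in 43 (76.8%, interval 63.6% to 87.0%) and Slc1a4 in 9 (16.1%, interval 7.62% to 28.3%). At 10 TPM or more, none of the 7 was present in every cell, and the counts were 53 cells for Slc3a2, 50 for Slc1a5, 45 for Slc38a2, 38 for Bcat1, 34 for Slc7a1, 29 for Slc7a5 and 6 for Slc1a4. Genes with a mean TPM like that of Slc7a5 were detected in a median of 32 cells, and genes with a mean like that of Slc7a1 in 27. For genes with means like those of Slc3a2, Slc38a2, Slc1a5 and Bcat1 the median was 53, 52, 48 and 41 cells. Slc1a4, in 9 cells, was below the median of 17 cells for genes of its mean. A median cell therefore had 6 of the 7 genes: 6 cells had 7, 32 had 6, 12 had 5, 5 had 4, and T3_3 had 3.

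The order of the levels by median was Slc3a2, Slc38a2, Slc1a5, Bcat1, Slc7a5, Slc7a1 and Slc1a4, but neighbours in it often changed places between cells. Slc3a2 exceeded Slc38a2 in 30 of the 56 cells, Slc38a2 exceeded Slc1a5 in 32, and Bcat1 exceeded Slc7a5 in 33. Slc7a5 exceeded Slc7a1 in 26 cells and was below it in 28. These neighbours did not differ beyond their spread over cells. The clearer steps were Slc1a5 over Bcat1, in 38 cells, and Slc7a1 over Slc1a4, in 46 cells.

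Summed, the 7 genes took a median of 631 TPM per cell. The sum was lowest in T3_3, at 61 TPM, where Slc1a5 at 56 TPM made up 91.8% of it, and highest in T4_7, at 4696 TPM, where Slc3a2 at 2821 and Slc38a2 at 1453 TPM led. The gene with the highest level was Slc38a2 in 19 cells, Slc3a2 in 16, Slc1a5 in 15, Bcat1 in 5 and Slc7a1 in 1. The leading carrier thus differed from cell to cell.

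Set T3 held low values for several of the genes. The median of Slc38a2 was 26.5 TPM in T3 against 158 to 222 TPM in the other sets, and that of Slc7a5 was 4.5 TPM in T3 and 1 TPM in T5 against 14.5, 32.5 and 38.5 TPM in T1, T2 and T4. Set T3 also had the lowest median number of detected genes, 4272.5 against 4694 to 4837. The part of this number, and of the set itself, in the low values was not tested. Bcat1 medians ran from 15.5 TPM in T3 to 38 TPM in T4, within sets that each spanned 0 to at least 143 TPM. Bcat1 was the member whose level moved most with the number of detected genes, at a Spearman rank correlation (rho) of 0.40, against 0.11 for Slc7a5 and 0.00 for Slc3a2 (n = 56 cells, each point 1 library).

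Variation between cells was set against genes of a similar mean. The measure was the squared coefficient of variation on the log2 scale, minus the running median of the genes nearest in mean, called here the excess, over the 7871 genes (74.5% of the table) detected in at least 10 cells. Slc1a4 was not among them, so 6 of the 7 genes had a value. Slc3a2 had an excess of 1.35, above 1, as had 13.1% of genes. That call rested on 1 cell: without T4_7, which held 20.8% of all Slc3a2 TPM, its excess was -0.61, and with each gene's highest cell removed it was -0.34. Slc7a1 (-1.10), Bcat1 (-1.11) and Slc7a5 (-1.0, at the edge of the threshold) were below -1, as were 15.1% of genes. These 3 calls were lost in several alternatives, with the lowest and highest excess given in the closing section. Slc1a5 (-0.35) and Slc38a2 (0.17) were near genes of their mean. Without T4_7, none of the 6 genes with a value had an excess above 1. Near-identical annotated copies were not found for Slc7a5, Slc1a5, Slc7a1, Slc38a2 and Slc1a4. The Slc3a2 transcript of 2813 bases shared stretches of at most 194 bases (92.3% identity) with transcripts of at least 413 other genes. The part of such stretches in the Slc3a2 values was not tested.

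Both chains of CD98 were detected in 43 of the 56 cells, the heavy chain Slc3a2 without the light chain Slc7a5 in 13 cells, and Slc7a5 without Slc3a2 in 0 cells. At 10 TPM the counts were 28 cells with both, 25 with Slc3a2 only, 1 with Slc7a5 only (T4_3, with Slc7a5 at 23 and Slc3a2 at 2 TPM) and 2 with neither. Slc3a2 was the higher of the 2 chains in 53 cells. Slc7a5 was higher in T2_7 (255 against 195 TPM), T2_10 (65 against 23 TPM) and T4_3. The log2 ratio of Slc3a2 to Slc7a5, with 1 TPM added to each, had a median of 3.49 (SD 2.72, n = 56 cells) and ran from -3.00 in T4_3 to 9.65 in T1_1, where Slc7a5 was listed at 0 beside Slc3a2 at 805 TPM. Where both were detected, the median fold without a pseudocount was 5.51. By these RNA values the heavy chain was thus the higher one in nearly every cell, by a margin that differed widely. The part that stretches shared between Slc3a2 and other genes have in this margin was not tested. In the 13 cells where Slc7a5 was listed at 0, Slc3a2 ran from 4 TPM in T3_3 to 805 TPM in T1_1.

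The levels of the 2 chains were weakly related over cells. Their rho was 0.28 (n = 56 cells, each 1 library), below the 0.3 used here for a call, and Slc3a2 was gene 317 of 7870 in the order of rho with Slc7a5. Within sets T1 to T5, rho was 0.21, -0.41, 0.72, 0.38 and 0.21. The pooled value was 0.14 without set T3 and 0.38 without set T2. With ranks centred by set, rho was 0.23. The relation therefore did not hold in every set and leaned on T3, where Slc7a5 and Slc3a2 were both low in cells such as T3_3 (0 and 4 TPM) and both present in T3_7 (53 and 173 TPM). The median log2 ratio also differed by set, from 1.49 in T4 to 5.75 in T5.

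**Figure D2:**
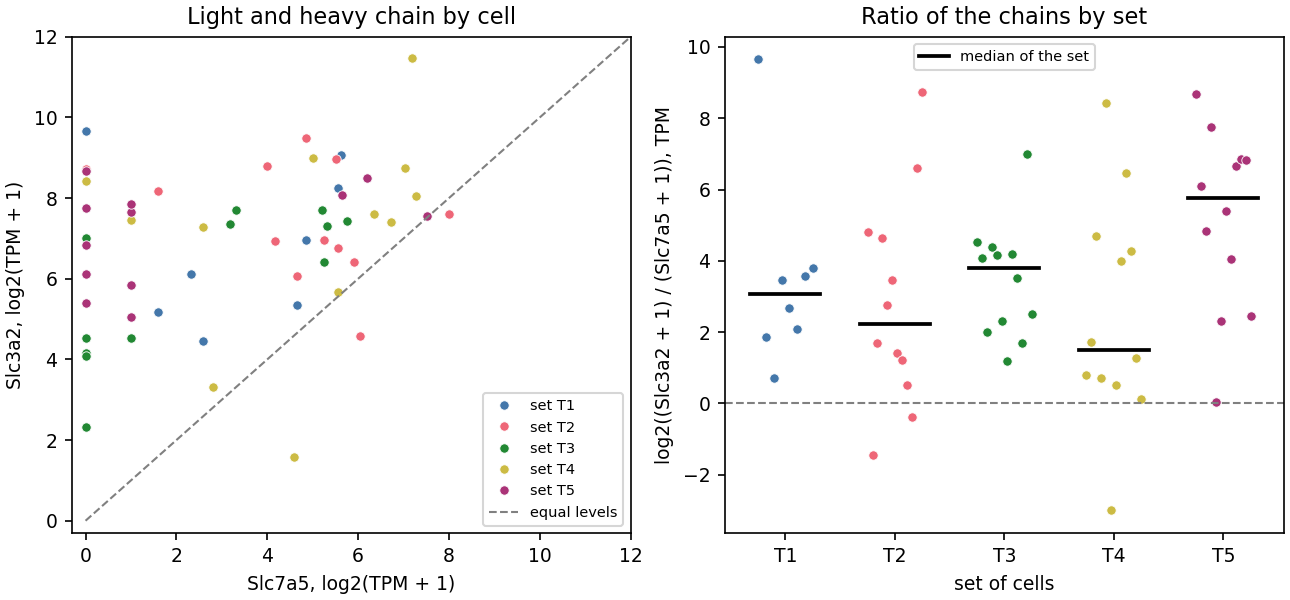
Left, Slc3a2 against Slc7a5 in each of the 56 cells as log2(TPM + 1), coloured by set, with a dashed line at equal levels; 53 cells lie above it. Right, the log2 ratio of Slc3a2 to Slc7a5 (1 TPM added to each) by cell in each set, with the set's median as a bar, from 1.49 in T4 to 5.75 in T5.

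Slc3a2 has other light chain partners, of which Slc7a6 and Slc7a11 were in the table. Slc7a6, a carrier of cationic and neutral amino acids, was detected in 32 cells, with a median of 4.5 and a highest level of 325 TPM in T1_7. Slc7a11, the cystine and glutamate exchanger, was detected in 3 cells, and its highest level was 106 TPM in T4_7, the cell with the highest Slc3a2. The 3 light chains summed had a median of 45 TPM, and at least 1 of them was detected in 47 cells. Slc3a2 still exceeded the sum in 46 cells. Its rho with the summed light chains was 0.38 (n = 56 cells), against 0.28 with Slc7a5 and 0.21 with Slc7a6. Slc7a6 was detected in 4 of the 13 cells where Slc7a5 was not.

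Pairs of the 7 genes were correlated about as gene pairs at large were. None of their 21 pairs reached a rho of 0.3 or more, where 3.11% of all gene pairs did. None fell to -0.3 or less, where 0.518% did. With only 21 pairs, counts of 0 lie near these shares and do not set the 7 genes apart. The median rho of the 21 pairs was 0.06, beside 0.04 over all gene pairs, and 13 pairs were above 0. The highest values were those of Slc7a5 with Slc3a2 (0.28), Slc3a2 with Bcat1 (0.27) and Slc7a1 with Bcat1 (0.26). Bcat1 was gene 274 of 7870 in the order of rho with Slc3a2 and gene 281 with Slc7a1. In the order of rho with Bcat1, Slc3a2 was gene 745 and Slc7a1 gene 868. The Slc3a2 and Bcat1 value was 0.36 as Pearson's r of log2(TPM + 1), 0.34 without set T2 and 0.39 without T5. Leaving out a set also took 3 other pairs of Slc7a5 past 0.3: with Bcat1 (0.37 without T5), with Slc1a4 (0.43 without T4) and with Slc38a2 (0.30 without T3). Slc7a1 with Bcat1 was at 0.31 without cell T4_3. Slc1a5, the glutamine carrier detected in every cell, followed none of the rest: its rho was between -0.21 and 0.04 with the other 6 genes. It stood at -0.14 with Slc38a2, the other abundant glutamine carrier, and this pooled value joined sets of opposite sign: -0.62, -0.36, -0.34 and -0.29 in T1, T2, T4 and T5 against 0.63 in T3. Without set T3 it was -0.36, past the -0.3 used for a call. Slc38a2 led in cells such as T4_7 (1453 TPM, with Slc1a5 at 38), and Slc1a5 led in T1_7 (1013 TPM, with Slc38a2 at 80). All 9 cells with Slc1a4 also had Slc7a5, itself detected in 43 of the 56 cells, and all 9 had Slc3a2, Slc1a5 and Slc38a2 too. The rho of Slc1a4 with Slc7a5 was 0.24 and rests on those 9 cells.

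**Figure D3:**
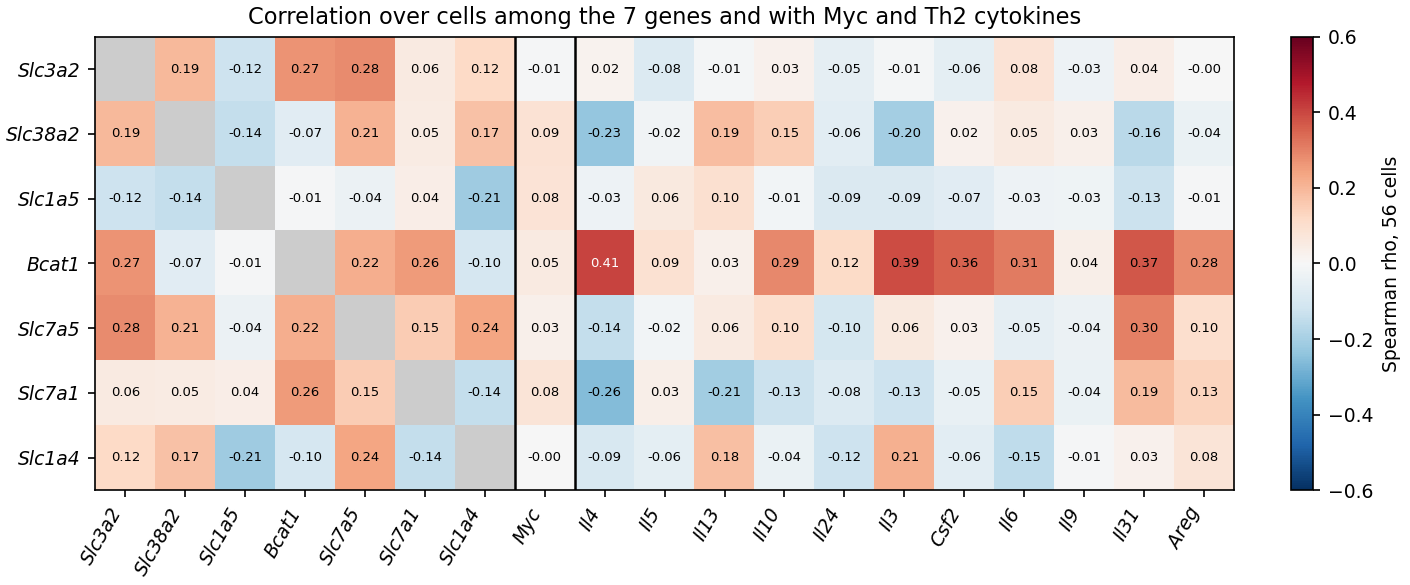
Spearman rho over the 56 cells between each of the 7 genes (rows) and the 7 genes, Myc and 11 Th2 cytokines (columns), with red for positive and blue for negative values and grey for a gene with itself. The row of Bcat1 is positive for all 11 cytokines, up to 0.41 for Il4, and the Myc column lies between -0.01 and 0.09.

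Myc, the growth regulator, was abundant, and none of the 7 genes followed its level in these cells. It ranged from 0 through a median of 299 to 3804 TPM in T5_4, and was detected in 52 cells. Its rho with the 7 genes had a median of 0.05, from -0.01 for Slc3a2 to 0.09 for Slc38a2 (n = 56 cells). None of the 7 reached 0.3, as 1.25% of all genes did, and the median of all genes with Myc was 0.01. Among only 7 genes, a count of 0 lies near that share. Without set T3 the median over the 7 genes was -0.02. Single cells show how the levels parted. T5_4, with Myc at 3804 TPM, had Slc7a5 listed at 0, Slc3a2 at 41 and Slc1a5 at 2 TPM, but Slc38a2 at 506 TPM. T3_10, with Myc at 1527 TPM, had Slc7a5 listed at 0 and Slc3a2 at 16 TPM, but Slc1a5 at 201 and Slc38a2 at 254 TPM. T2_5, with Myc at 1367 TPM, had Slc1a5 at 507 TPM. In the other direction, T3_1 and T3_4 had Myc listed at 0, with Slc1a5 at 554 TPM in T3_1 and Bcat1 at 254 TPM in T3_4.

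Among 23 genes of ribosome biogenesis that Myc is known to drive, 5 had a rho of 0.3 or more with Slc1a5, as 1.89% of all genes did, and the median was 0.15 beside 0.00 for all genes. They were Nhp2 (0.53), a core protein of the H/ACA small nucleolar particles, Nop58 (0.36) and Nop56 (0.33), core proteins of the C/D box particles, nucleolin Ncl (0.36) and Mybbp1a (0.32). Nhp2 was also the gene with the highest rho of all with Slc1a5. Within sets the median rho of the list with Slc1a5 was 0.19, 0.18, 0.29, -0.04 and 0.39 in T1 to T5, so it was near 0 in T4. The count was 3 without T1 (2.88% of all genes) or without T2 (3.82%). With Slc7a1, 3 of the 23 reached 0.3, as 1.69% of all genes did: the nucleolar protein Nop16 (0.45), Ncl (0.38) and Bop1 (0.32), with a list median of 0.20 beside 0.01. Within sets T1 to T5 that median was 0.02, 0.32, 0.08, 0.38 and 0.27, and the count was 8 without T3 (2.59% of all genes). Of these genes, Ncl, Nop58, Mybbp1a and Bop1 were named after their values were seen.

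Among the 7 genes, Bcat1 had most of the higher correlations with Th2 cytokines. Over the 7 genes and 11 cytokines, 6 of 77 pairs had a rho of 0.3 or more (3.81% over all genes) and none had -0.3 or less (0.549% over all genes), with a median of -0.01 beside 0.05 over all genes. Of the 6 pairs, 5 were of Bcat1, and the other was Slc7a5 with Il31 (0.30), which fell under 0.3 with ranks centred by set (0.28) and as Pearson's r (0.24), among other alternatives. The median rho over the 11 cytokines was 0.03 for Slc7a5, -0.01 for Slc3a2, -0.03 for Slc1a5, -0.05 for Slc7a1, -0.02 for Slc38a2 and -0.04 for Slc1a4. For Il4, the defining cytokine, rho was 0.02 with Slc3a2, -0.14 with Slc7a5, -0.23 with Slc38a2 and -0.26 with Slc7a1. The last 3 of these passed -0.3 in 1 alternative each, Slc7a5 (-0.35) and Slc7a1 (-0.33) without set T3, and Slc38a2 (-0.30) with the number of detected genes removed from both ranks. Slc7a5 with Il10 was at 0.35 without set T5. For Il13, a neighbour of Il4 in the genome, the values ran from -0.21 with Slc7a1 to 0.19 with Slc38a2.

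Bcat1 had a rho of 0.3 or more with 5 of the 11 cytokines, where 6.32% of all genes reached that value with Bcat1. They were Il4 (0.41), Il3 (0.39), Il31 (0.37), an itch cytokine, Csf2 (0.36), which encodes GM-CSF, and Il6 (0.31), detected in only 13 cells. Il10 (0.29) and Areg (0.28) were just under, and Il24 (0.12), Il5 (0.09), Il9 (0.04) and Il13 (0.03) were low. All 11 values were above 0, and their median was 0.29, beside 0.08 for Bcat1 with all genes. Of 7860 genes other than the cytokines, Bcat1 was the tenth highest by its median rho with them, and 14 genes (0.178%) reached 0.3 with as many cytokines. Il3, Csf2 and Il31 were high together in some cells, such as T2_8, T2_10, T3_9 and T4_1. The 5 cytokines may therefore not be separate relations, and correlations among them are not given here. Bcat1 was also chosen with earlier results of these data known.

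Cell T2_8 shows the upper end of this relation, with Bcat1 at 247 TPM beside Il3 at 80859, Csf2 at 52207, Il31 at 6229 and Il4 at 1271 TPM. T3_4, with the highest Bcat1, at 254 TPM, had Il4 at 12196 TPM. T4_3, the cell with the fewest detected genes, had Bcat1, Il4 and Il3 listed at 0 and Csf2 at 2 TPM. The relation had wide exceptions. T2_1, at 248 TPM of Bcat1, had Il4 at 94 and Il3 at 30 TPM, and T1_7, with Bcat1 listed at 0, had Il4 at 169 and Il3 at 5479 TPM.

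The number of detected genes moved with Bcat1 (rho 0.40). Removing it from both ranks lowered the median over the 11 cytokines from 0.29 to 0.17 (and that of all genes from 0.08 to 0.01). It left 4 cytokines at 0.3 or more (Il4, Il3, Csf2 and Il31), as 2.35% of all genes were. Il5, Il13 and Il9 were then below 0 (-0.0072, -0.11 and -0.12), and Bcat1 ranked 83 of the 7860 genes in place of 10. Without set T4, 3 cytokines reached 0.3 (Il4, Il3 and Il31), as 8.91% of all genes did. The highest of the values, that of Il4, fell to 0.27 without set T3 and to 0.30 with the number of detected genes removed. Within sets T1 to T5, Bcat1 with Il4 was at 0.24, 0.49, 0.75, -0.08 and 0.42. Within sets the median over the 11 cytokines was 0.08, 0.22, 0.23, 0.25 and 0.27 in T1 to T5. The antisense gene Gm26666 (chr6:145047559-145050430, plus strand) lies within Bcat1 (chr6:144993835-145076184, minus strand) in the GENCODE annotation of GRCm38, and their exons share 337 bases. No source used here says whether strand entered the counting, so reads of the 2 could not be told apart there.

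**Figure D4:**
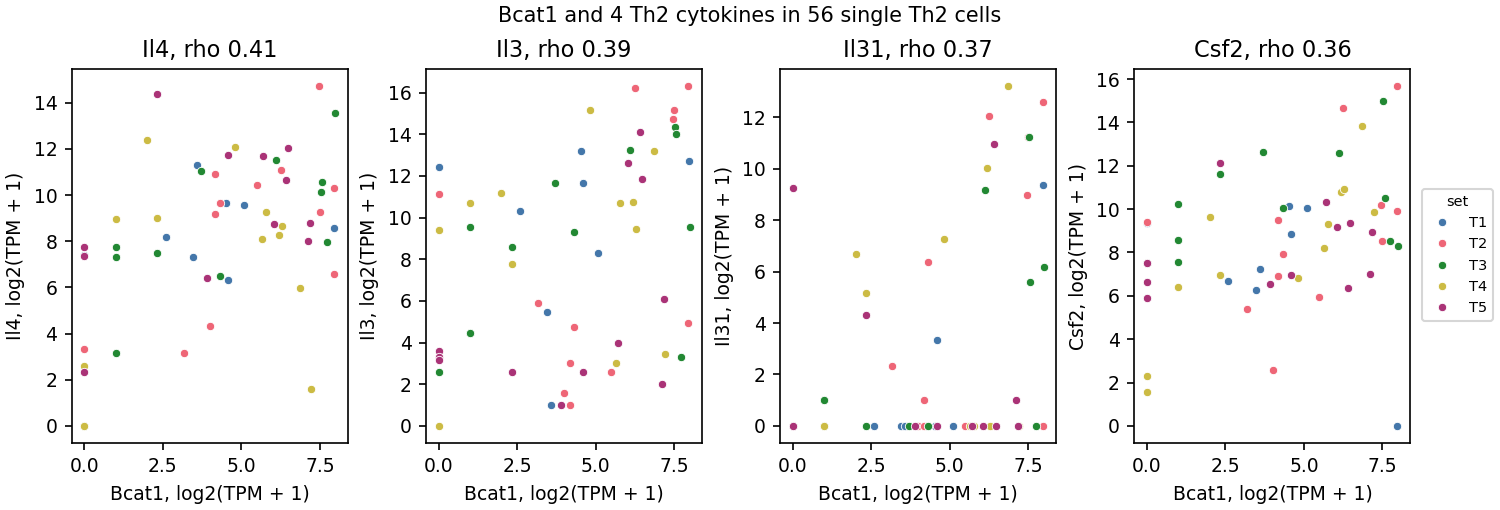
Levels of Il4, Il3, Il31 and Csf2 against Bcat1 in the 56 cells, both axes log2(TPM + 1), 1 point per cell coloured by set. The Spearman correlation is 0.41, 0.39, 0.37 and 0.36, and the Il3 panel also holds cells with little Bcat1 and high Il3, and the reverse.

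Slc7a5 was related to genes of the stress response that runs through the transcription factor ATF4 when amino acids are short or the endoplasmic reticulum is stressed. Of 25 analysed genes of that list, 8 had a rho of 0.3 or more with Slc7a5, where 2.92% of all genes did, and the list's median was 0.22 beside 0.04. They were Trib3 (0.44), a pseudokinase that restrains ATF4, Eif4ebp1 (0.41), a brake on cap-dependent translation, Mthfd2 (0.36), a mitochondrial enzyme of one-carbon metabolism, Chac1 (0.34), which degrades glutathione, the stress factors Ddit3 (0.34), Nupr1 (0.33) and Atf3 (0.32), and Cebpb (0.31). Several of the 8 were sparse or low: Trib3, Chac1 and Nupr1 were detected in 14, 13 and 16 cells, and Cebpb reached at most 18 TPM. Eif4ebp1, Mthfd2, Ddit3 and Atf3 were detected in 39 to 52 cells. Atf4 RNA itself had a rho of 0.07 with Slc7a5, and asparagine synthetase, Asns, 0.01. In cell T4_7, which also carried the highest Slc3a2 and Slc38a2, Slc7a5 was at 144 TPM. Without this cell 5 of the 8 stayed at 0.3 or more (3.35% of all genes). Without set T5 the count was 4 (5.35%), without T4 it was 5 (4.52%), and in set T2 the list's median was -0.05. For Slc3a2 none of the 25 reached 0.3 (2.05% of all genes did), and for Slc38a2 2 of them did (2.45%), while Slc1a4, detected in 9 cells, had 4 (2.9%), with a list median of 0.21 beside 0.02. The differences between the 7 genes on this list were not tested.

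Bcat1 in turn was related to genes of mitosis: 10 of 21 G2/M genes had a rho of 0.3 or more with it (6.32% of all genes), with a median of 0.28 beside 0.08 for all genes. The highest were Tpx2 (0.45), a spindle assembly factor named after its value was seen, and Ube2c (0.43), a ubiquitin enzyme of mitotic exit. The count fell to 2 once the number of detected genes was removed from the ranks (2.35% of all genes). It was 3 without set T3 (6.02%) and 4 without set T5 (8.23%), and within T4 the median was -0.14. With the cell cycle score removed from the ranks, the rho of Bcat1 with the cytokines had a median of 0.30, with 6 of 11 at 0.3 or more (4.98% of all genes). It was lower for 9 of the 11, among them Il4 (0.36) and Il3 (0.37), with Il13 and Il9 below 0 (both -0.03), and higher for Il31 (0.40) and Areg (0.30). No other member had a G2/M gene at 0.3 or more.

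**Figure D5:**
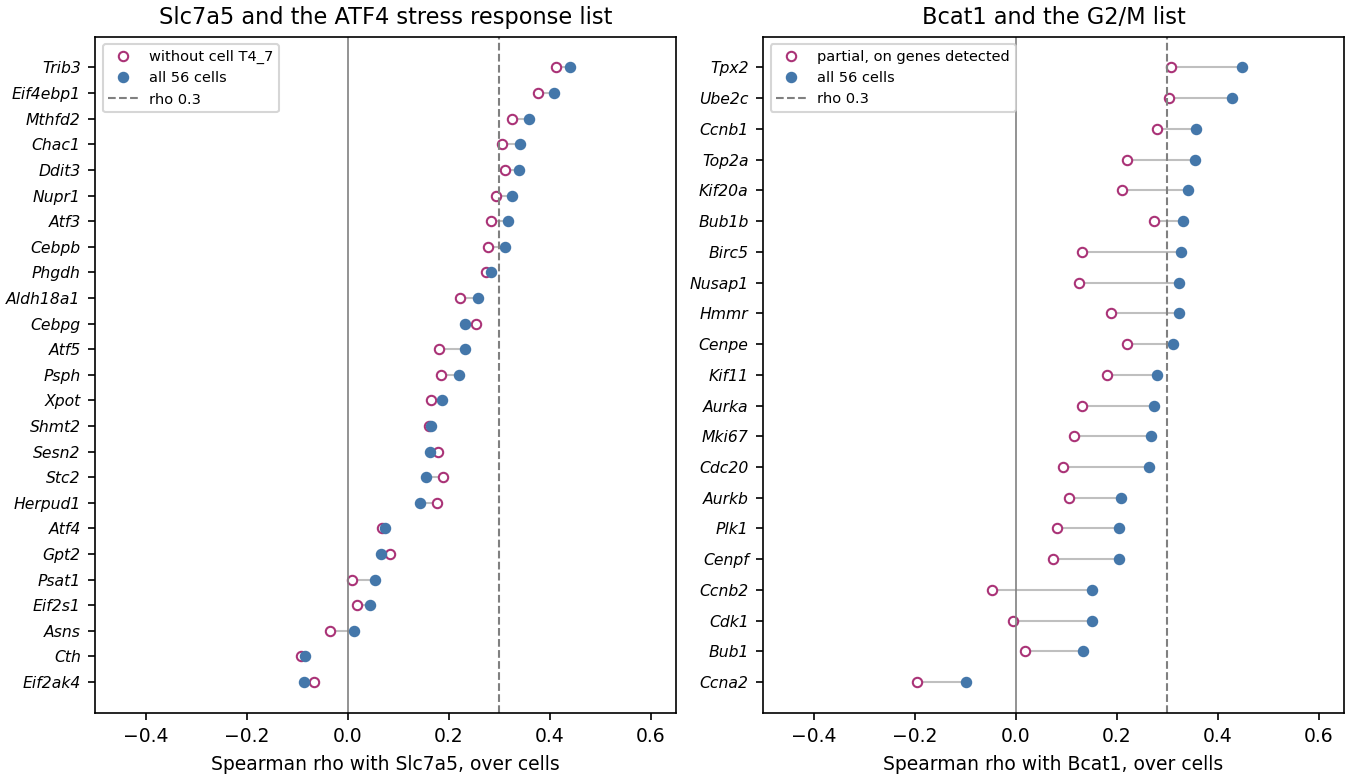
Spearman rho over cells of Slc7a5 with each gene of the ATF4 stress response list (left) and of Bcat1 with each G2/M gene (right), filled for all 56 cells and open without cell T4_7 (left) or as a partial rho on the number of detected genes (right), with a dashed line at 0.3. On the left 8 genes pass the line and 5 without T4_7; on the right 10 pass and 2 as a partial rho.

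Lists of other genes of amino acid handling were compared in the same way. Bcat2, the mitochondrial partner of Bcat1, was detected in 28 cells, with a median of 0.5 and a highest level of 370 TPM in T3_4, the cell with the highest Bcat1, and its rho with Bcat1 was 0.297, under the threshold. Of the 20 branched-chain amino acid catabolism genes compared, 1 reached 0.3 with Bcat1 (6.32% of all genes), Dbt (0.34), the acyltransferase of the branched-chain dehydrogenase complex, and the list's median was 0.07 beside 0.08. Of 32 genes of mTORC1 and its amino acid sensors, 1 reached 0.3 with Slc7a5, as 2.92% of all genes did (Eif4ebp1, which the ATF4 list holds too), and 1 with Slc3a2, as 2.05% did (Fnip1, 0.42, a partner of folliculin). The kinase gene Mtor had a rho of 0.13 with Slc7a5 and 0.01 with Slc3a2. Of 23 genes of cytosolic aminoacyl-tRNA synthetases, which load amino acids onto tRNA, or of their partner proteins, 3 reached 0.3 with Slc7a5 (2.92% of all genes). The list's median was 0.18 beside 0.04. With ranks centred by set that median was 0.09 beside 0.04, and within set T2 it was -0.10. With Slc1a4, 5 of the 23 reached 0.3 (2.9% of all genes), a value that rests on the 9 cells with Slc1a4.

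Of 25 other genes listed as amino acid transporters or their relatives in the table, 13 were detected in at least 10 cells. Slc38a1, the close relative of Slc38a2, was the most widely detected, in 47 cells, with a median of 41.5 and a highest level of 220 TPM, and its rho with Slc38a2 was 0.10. Its median was above those of Bcat1, Slc7a5 and Slc7a1. Slc25a44, a mitochondrial carrier of branched-chain amino acids, was detected in 19 cells and had a rho of 0.38 with Bcat1 and 0.36 with Slc3a2. Slc25a22, a mitochondrial glutamate carrier, was detected in 19 cells and had a rho of 0.32 with Bcat1. Of the 13 genes, 2 thus reached 0.3 with Bcat1 (6.32% of all genes) and 1 with Slc3a2 (2.05%), and none did with the rest. The only value of -0.3 or less on the list was that of Slc38a10, detected in 30 cells, with Slc1a5 (-0.39). Slc43a2, a leucine carrier without a heavy chain, was detected in 6 cells, and Slc38a9, the lysosomal arginine sensor, in 9. After Slc38a1, the list's most widely detected gene was Slc43a3, a relative of Slc43a2, in 35 cells, and its cargo was not examined here.

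The genes closest to each member over the 56 cells had rho values of about the same size, between 0.45 and 0.56 for the 3 highest. For Bcat1 they were the splicing factor Prpf4 (0.56), Tnfsf11 (0.56), which encodes the cytokine RANKL, and the semaphorin receptor Nrp1 (0.51). For Slc7a5 they were Tmem127 (0.54), Degs1 (0.50), a desaturase of ceramide synthesis, and the proteasome regulator Nfe2l1 (0.48). For Slc38a2 they were Cdk5r1 (0.56, in 18 cells), the protease Ctsc (0.51) and Strn3 (0.49). The closest to Slc3a2 was Gltscr2 (0.48), the ribosome assembly factor now called Nop53, and the closest to Slc7a1 was Ndufa8 (0.49), a subunit of respiratory complex I. The lowest values were those of Shisa5 with Bcat1 (-0.51), Dusp11 with Slc1a5 (-0.49), Tbc1d10c with Slc7a5 (-0.48), the peptide transporter Tap1 with Slc38a2 (-0.47), the elongin gene Tceb1, now Eloc, with Slc3a2 (-0.45) and the actin regulator Coro1b with Slc7a1 (-0.43). B2m, the light chain of MHC class I and detected in every cell, stood at -0.43 with Slc7a1. These are the extremes of 7870 values for each gene and carry no test.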

How the data were processed

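RNA sequencing gave 1 library for each of 56 single cells. The deposited values are a score: TPM, which the authors rounded to whole numbers, with column sums of 999202 to 999914. Per the submitters' processing notes, FastQC, Bowtie 0.12.2 and Cufflinks were used with build mm9; the role of each is not given in the sources read here. Depth is unknown, which limits the precision of low values.

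The 7 genes and the gene lists were chosen with earlier results of these data known. From the list of other transporters, 1 gene, Slc7a6os, was removed after values were seen, because it is not a transporter. Detection was set at 1 TPM, and genes detected in at least 10 cells entered the variation and correlation measures (7871 of 10565). Slc1a4, detected in 9 cells, had no excess value but was kept in the correlations as 1 of the 7 genes. Over the 15 pairs without Slc1a4, the median rho was 0.06. Spearman rho was called at 0.3 or more and at -0.3 or less, and excess above 1 or below -1. The 56 cells are 1 sample, so no p-value was made. Named genes are the 7 genes, Myc, the cytokines, the 3 highest and 2 lowest rho values per gene, the closest relatives of a summary score (not printed), and up to 4 genes of each list, with the ATF4, mTORC1, branched-chain and transporter lists free to be named in full. Scripts used Python 3.11.15, NumPy 2.4.6, SciPy 1.17.1 and pandas 2.3.3, and were tested on simulated data. Promoters came from RefSeq (GRCm38.p6). Transcript copies were sought with blastn in GENCODE transcripts at 90% identity over 100 bases. Alternatives were other thresholds, scales, windows, pseudocounts, ranks centred by set, partial correlations, and leaving out each set or cell T3_2, T3_5, T4_7, T3_3 or T4_3 (the last 3 chosen after seeing the data).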

Additional observations from a re-analysis of the deposited data

How the results depend on the processing

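The relation of Slc7a5 to Slc3a2 (rho 0.28) passed 0.3 as Pearson's r of log2(TPM + 1) (0.30), without set T2 (0.38), without set T5 (0.31) and over cells with both chains (0.37). The median rho with Myc was -0.020 without set T3. The median rho with the Th2 cytokines, -0.01, changed sign with Pearson's r (0.016), ranks centred by set (0.0012), and without set T2 (0.025), set T5 (0.035) or cell T4_7 (0.0018). At a detection threshold of 5 or 10 TPM, 0 of the 7 genes were in every cell, against 2. The 1 gene with an excess above 1, Slc3a2, became 0 on the SD scale, without each gene's highest cell, without set T4 and without T4_7, where its excess was -0.77, -0.34, -0.46 and -0.61. Excess ran from -1.26 to -0.13 for Slc7a5, -1.81 to -0.67 for Slc7a1 and -1.16 to -0.24 for Bcat1.

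Counts of genes at a rho of 0.3 or more were tried under alternatives chosen after seeing the data. Percentages in brackets are the share of all genes in the same setting. Bcat1 with cytokines gave 5 (6.32%), and 3 without set T4 (8.91%). Bcat1 with G2/M genes gave 10 (6.32%), 3 without T3 (6.02%) and 4 without T5 (8.23%). It gave 2 as a partial rho on genes detected (2.35%). It also gave 2 as a partial rho on the cell cycle score, which contains these genes (4.98%). Slc7a5 with ATF4 genes gave 8 (2.92%), and 5 with ranks centred by set (3.35%). It gave 5 without T4 (4.52%), 4 without T5 (5.35%) and 5 without T4_7 (3.35%). The cause of these changes was not tested. The median log2 ratio of the chains (2.21 to 4.04) and the median rho of the member pairs (0.03 to 0.11) kept their direction in every alternative run. Without T3_2 and without T3_5, in turn, the chains' rho was 0.26 and 0.28, the Slc7a5 count with ATF4 genes 6 and 8, and the Bcat1 counts stayed at 5 and 10. Without T3_3 and without T4_3, in turn, the chains' rho was 0.26 and 0.29, the Slc7a5 count 7 and 8, and the Bcat1 counts were 5 with cytokines and 9 with G2/M genes in both. No paired analysis was possible because the cells form 1 group.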
